A study of Saccharomyces cerevisiae with 10 samples.

Results

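The genes of the RNA polymerase I and III machinery were followed through a KCl stress and recovery regime in *Saccharomyces cerevisiae*. The members were taken by name, as the *S. cerevisiae* probe sets whose platform symbol is on a fixed list. It holds subunits of RNA polymerase I and III, their initiation factors, the pol III repressor Maf1 and 6 regulators of ribosome gene transcription. The list is not complete. RPC10, RPC11, TBP (SPT15) and TFIIIA (PZF1), for example, are not on it and are treated below as further genes of the 2 pathways. All 45 named genes matched 1 probe set each, and they make up 45 of the 5449 *S. cerevisiae* genes measured. The rule uses names alone, though it was written with earlier results of these data known. There were 7 pol I subunits, 9 pol III subunits, 2 subunits shared by pol I and III, 4 subunits shared by all 3 nuclear polymerases, 8 pol I initiation factors, 6 TFIIIC subunits, 2 TFIIIB subunits, MAF1 and the 6 regulators SFP1, IFH1, FHL1, STB3, DOT6 and TOD6. Each member lay above the 95th percentile of the probe sets for other species on all 10 arrays.

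The study profiled gene expression on Affymetrix Yeast Genome arrays at 5 stages of the regime, with 2 arrays a stage. Sample A was taken during normal growth and Sample B during stress adaptation, 1 h after dilution into medium with 1 M KCl. Sample C was taken after adaptation with the cells still in KCl, Sample D during recovery, 1 h after return to medium without KCl, and Sample E once recovery was judged complete. All cultures grew in YPD at 30 °C. The labels name the strain BQS1350, and the methods of the study name By4742, a haploid MATα strain. In the methods it carries Gcn5 with a MYC13 tag. Which of the names holds for the expression arrays is not settled here. The labels give the same strain for all stages, so 1 strain represents the species. Values are log2 expression values, in which a difference of 1 is a 2-fold change.

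RNA polymerase I makes the large ribosomal RNA precursor, and RNA polymerase III makes tRNAs, 5S ribosomal RNA and other small RNAs. Both enzymes share a core architecture with RNA polymerase II, and each has subunits of its own, together with initiation factors that bring it to its promoters: Rrn3, core factor and UAF for pol I, TFIIIC and TFIIIB for pol III. In growing yeast these enzymes make most of the RNA of the cell, and genes for ribosome production are a textbook example of genes turned down when growth is interrupted. The arrays measured the mRNAs of the machinery, not its products or its activity.

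The labels were checked on genes with known behaviour. The alpha cell markers MFALPHA1 and STE3 read at least 11.77 on every array, and MFALPHA2 read 10.35 on Sample B replicate 2 and at least 12.70 on the others. The a cell markers MFA1, STE2 and MFA2 read between 5.22 and 7.45. MFA1 and STE2 lay above the 95th percentile of the probe sets for other species on all 10 arrays, and MFA2 on 6. The 4 osmotic stress genes HSP12, STL1, GPD1 and GPP2 all rose in Sample B against Sample A, HSP12 by 6.79 on the log2 scale (limma, adjusted p = 0.0071). In Sample E all 4 still had a higher mean than in Sample A, with a median difference of 0.93, and none passed the test. HSP12 read 10.25 and 12.50 in Sample E, against 7.38 and 8.09 in Sample A. The medians of the arrays over all genes lay between 9.59 and 10.19. Replicates differed most in Sample B, with a root mean square difference of 1.04 over all genes, against 0.32 to 0.48 within the other stages. Over the members it was 0.805 in Sample B, against 0.263 to 0.475 in the other stages.

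During stress adaptation the mRNAs of the polymerase subunits were lower than in normal growth. All 22 subunit genes had a lower mean in Sample B than in Sample A, with a median log2 difference of -0.72, while the median over all genes was 0.08, and 3 of the 22 fell past the threshold of the test, against 0.899% of all genes. In these bulk arrays fewer cells with an mRNA and less of it per cell cannot be told apart. The median was -0.88 for the 7 pol I subunits, -0.97 for the 9 pol III subunits, -0.72 for the 2 subunits shared by both and -0.42 for the 4 shared by all 3 polymerases. In 16 of the 22 subunits both Sample B arrays lay below both Sample A arrays, against 15.9% of all genes. When 1 array of Sample B or A was left out, at least 20 of the 22 stayed below 0 and their median was -0.49 or lower. The pol I initiation factors were also below 0 in 8 of 8 cases, with a median of -0.51, whereas 5 of 6 TFIIIC subunits lay above 0, with a median of 0.24. The median of the pol I initiation factors was -1.02 within replicate 1 and 0.03 within replicate 2.

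**Figure D1:**
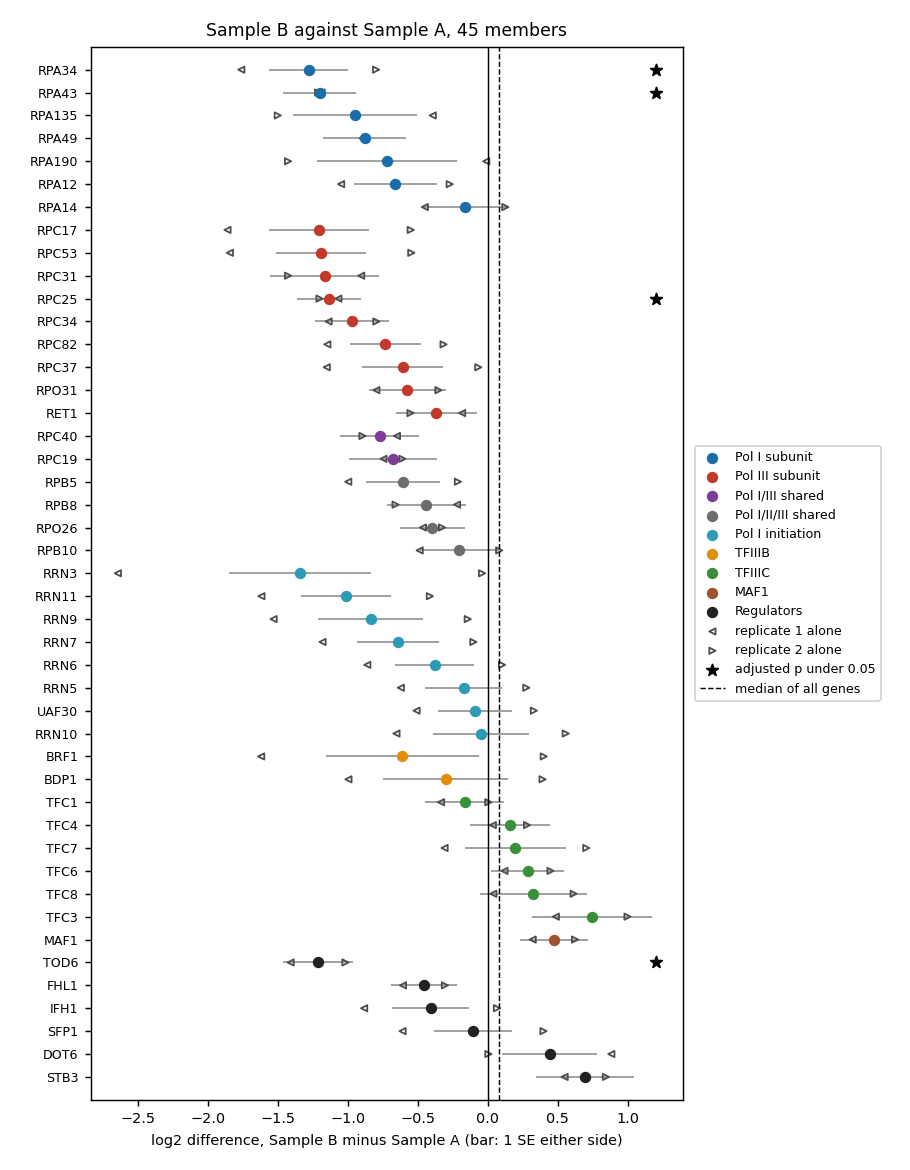
Log2 difference of Sample B minus Sample A for the 45 members (filled points, with 1 SE either side), grouped by role. Open triangles give the difference within replicate 1 and within replicate 2, the dashed line is the median of all 5449 genes, 0.08, and stars mark adjusted p under 0.05. The polymerase subunits lie left of 0 and 5 of the 6 TFIIIC subunits right of it.

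Across the 45 members, 37 were below 0, against 43.4% of all genes, and 4 fell past an adjusted p of 0.05 in Sample B and none rose, in limma fitted across all 5449 genes. This was 8.89% of the members, against a background of 0.899% of all genes that fell and 3.51% that rose. The 4 genes were RPA34, RPA43, RPC25 and TOD6. With the replicate number as a block RPC34 and RPC53 also fell, which gives 6 members or 13.3%, against 2.59% of all genes. Both Sample B arrays lay below both Sample A arrays for 22 members, or 48.9%, against 15.9% of all genes, and above them for 4 members, against 23.1% of all genes. At 1.8-fold or more, 12 members were lower and 0 higher, against 5.54% and 12.4% of all genes. By unadjusted p under 0.05, 14 members were lower, against 7.58% of all genes. No member was higher by that measure.

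The count of 4 depends on the arrays in the fit: it became 0 when either Sample A array, or any single array of a later stage than B, was left out. The count rose without either Sample B array, but so did the count over all genes, so only medians are given here. Without replicate 1 of Sample B the median of the members was -0.43, against 0.39 over all genes. Without replicate 2 of Sample B it was -0.55, against -0.13 over all genes. Among the control probe sets for ribosomal RNA, the one at the 3′ end of 18S gave 10.09 and 10.31 in Sample B, against 11.21 to 12.66 in the other 4 stages. The one at the 5′ end of 25S gave 11.14 and 10.14 in Sample B, against 11.66 to 12.04 in the other stages. The remaining ribosomal RNA sets were not low on both Sample B arrays. The 3′ end of 25S gave 13.553 and 14.003 in Sample B, against 13.427 to 14.043 in the other stages. The 5.8S set gave 13.104 and 13.326, against 12.631 to 13.7. The 5′ end of 18S gave 13.021 and 13.775, against 13.466 to 13.976. The part of these sets in the values of the members was not tested.

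RPA34 encodes a pol I subunit that pairs with Rpa49 in a TFIIF-like dimer on the enzyme. It read 11.00 and 11.48 in Sample B, against 12.76 and 12.27 in Sample A. The groups were apart by more than the gap within either, and the log2 difference was -1.28 (SE 0.283, limma adjusted p = 0.042), a 2.43-fold lower level. Its partner RPA49 read 11.46 and 10.89 in Sample B, against 12.36 and 11.75 in Sample A. These groups did not overlap either, but the difference of -0.88 did not pass the test (adjusted p = 0.139).

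RPA43 encodes the stalk subunit of pol I that docks the initiation factor Rrn3. RPA43 values were 9.79 and 9.35 in Sample B, against 10.97 and 10.56 in Sample A. Replicates 1 and 2 gave nearly the same difference, -1.19 and -1.21, and the fit gave -1.20 (SE 0.262, adjusted p = 0.041). The gene next to RPA43 is RPA190, which encodes the largest subunit of pol I and is transcribed away from it. RPA43 and RPA190 are the only 2 members that adjoin each other in the RefSeq gene table of assembly R64. RPA190 behaved differently on the 2 Sample B arrays, with 12.59 on replicate 1 and 10.73 on replicate 2, against 12.60 and 12.15 in Sample A. The catalytic partner of Rpa190, RPA135, showed the same split, with 12.68 and 11.11 in Sample B, against 13.07 and 12.61 in Sample A. The differences of RPA190 (-0.72, adjusted p = 0.485) and RPA135 (-0.95, adjusted p = 0.279) did not pass the test, and they rest on Sample B replicate 2, without which RPA190 turned to 0.21. Without replicate 1 of Sample B the differences were -1.65 (RPA190) and -1.73 (RPA135).

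The remaining pol I subunits were RPA12, the subunit related to Rpb9 of pol II, and RPA14, the partner of Rpa43 in the stalk. RPA12 was at 11.67 and 11.69 in Sample B, against 12.72 and 11.96 in Sample A, lower without overlap. RPA14 overlapped, with 12.41 and 12.22 in Sample B, against 12.85 and 12.10 in Sample A. Its difference of -0.16 was the smallest of the 22 subunits and turned to 0.22 without Sample A replicate 1.

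In pol III, RPC25 and RPC17 encode the stalk, RPC37 and RPC53 the TFIIF-like dimer, and RPC82, RPC34 and RPC31 a trimer found only in this polymerase. RPC25 had values of 9.83 and 9.51 in Sample B, against 10.90 and 10.71 in Sample A. The gap between the groups exceeded that within them, and the log2 difference was -1.13 (SE 0.231, adjusted p = 0.032), or 2.19-fold lower. RPC17, its stalk partner, read 8.93 and 9.71 in Sample B, against 10.79 and 10.26 in Sample A. The difference was as large, -1.20, but the Sample B arrays lay further apart and it did not pass the test (adjusted p = 0.102).

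RPC53 read 8.55 and 9.28 in Sample B, against 10.39 and 9.82 in Sample A. The difference was -1.19 (SE 0.321, adjusted p = 0.078) and passed the test with the replicate number as a block (adjusted p = 0.046). RPC34, whose product contacts TFIIIB during initiation, read 9.84 and 9.63 in Sample B, against 10.98 and 10.43 in Sample A. The difference of -0.97 (SE 0.264) had an adjusted p of 0.081 without and 0.042 with the block. RPC31 (-1.16), RPC82 (-0.73), RPC37 (-0.61) and the largest subunit RPO31 (-0.57) were lower without overlap and did not pass. The second largest subunit, RET1, differed least, by -0.37, and its groups overlapped. It was at 0.01 without Sample B replicate 2.

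The shared subunits all lay below 0 as well, and none passed the test. RPC40, which with Rpc19 forms the assembly platform of pol I and III, was at 12.35 and 11.68 in Sample B, against 12.99 and 12.57 in Sample A. RPC40 differed by -0.77 (adjusted p = 0.174) and RPC19 by -0.68 (adjusted p = 0.278), both without overlap. Among the 4 members common to all 3 polymerases, RPB5 had the largest difference, -0.60 (adjusted p = 0.248), with 11.21 and 11.50 in Sample B, against 12.21 and 11.71 in Sample A. RPB8 (-0.44), RPO26 (-0.39) and RPB10 (-0.20, but 0.03 without Sample A replicate 1) followed, and of these only RPO26 was lower without overlap.

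The 7 subunits found only in pol II gave a measure of the same machine outside the set. None passed the test in Sample B against Sample A, 5 of 7 lay below 0 and 0 of 7 was lower without overlap. Their median was -0.13, but 0.28 without Sample B replicate 1 and -0.35 without its replicate 2, and the largest difference was that of RPB9, -0.41 (adjusted p = 0.535), with 9.71 and 10.30 in Sample B, against 10.64 and 10.19 in Sample A. Subunits that hold the same place in the 3 enzymes can be set side by side as differences from Sample A. At the position of Rpb7 in the stalk, RPA43 differed by -1.20 and RPC25 by -1.13, against -0.29 for RPB7 of pol II. For the other stalk subunit, RPC17 differed by -1.20 and RPA14 by -0.16, against -0.25 for RPB4. The largest subunits differed by -0.72 (RPA190) and -0.57 (RPO31), against 0.30 (RPO21), and the second largest by -0.95 (RPA135) and -0.37 (RET1), against 0.09 (RPB2). Whether these differences differ from each other was not tested. The SEs of these 12 genes lay between 0.231 and 0.549.

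**Figure D2:**
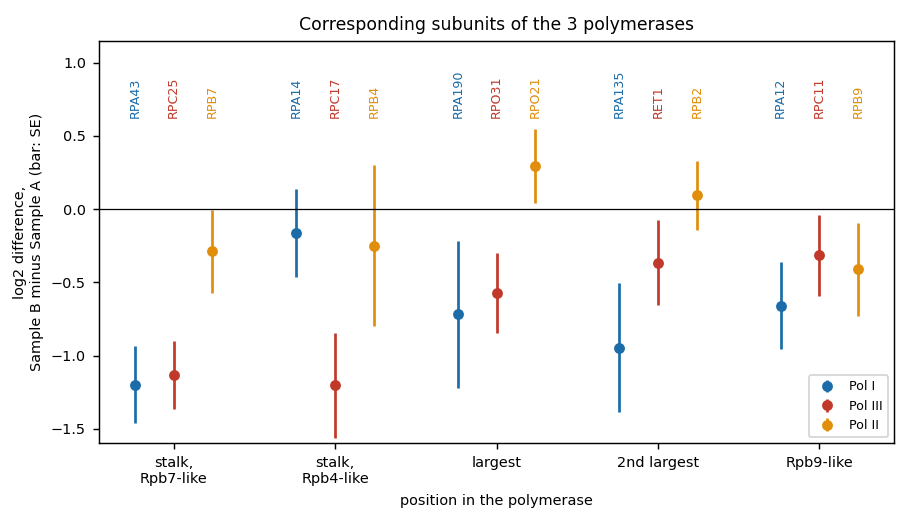
Log2 difference of Sample B minus Sample A (points, with 1 SE either side) for subunits at 5 corresponding positions of pol I, pol III and pol II. RPA43 and RPC25 lie at -1.20 and -1.13, RPB7 at -0.29. RPC11, the Rpb9-like subunit of pol III, is not a member.

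Among the pol I initiation factors, RRN3 links the polymerase to core factor, RRN6, RRN7 and RRN11 encode core factor, and RRN5, RRN9, RRN10 and UAF30 encode subunits of UAF, which binds upstream in the promoter of the ribosomal DNA. RRN3 had the largest difference of all 45 members, -1.34, but its arrays disagreed. It read 8.18 and 9.60 in Sample B, against 10.82 and 9.64 in Sample A. The difference was -2.64 within replicate 1 and -0.04 within replicate 2, and it did not pass the test (SE 0.505, adjusted p = 0.186). RRN11 was lower in both replicates, with 8.53 and 9.23 in Sample B, against 10.15 and 9.64 in Sample A, and a difference of -1.01 (adjusted p = 0.119). RRN9 (-0.84) and RRN7 (-0.64) were also lower without overlap. The other 4 factors overlapped, with differences between -0.38 and -0.05. Without Sample A replicate 1, or without Sample B replicate 1, 5 of the 8 factors were below 0 in place of 8.

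TFIIIC, which recognises the internal promoters of tRNA genes, had differences of the other sign in 5 of 6 subunits, of which none passed the test. TFC3, which encodes its largest subunit, read 9.15 and 10.11 in Sample B, against 8.66 and 9.11 in Sample A. Both Sample B arrays were higher than both Sample A arrays, and the replicates gave 0.49 and 1.00. The difference of 0.74 did not pass the test (SE 0.429, adjusted p = 0.385). TFC6 (0.28) was also higher without overlap, TFC8 (0.33), TFC7 (0.20) and TFC4 (0.16) lay above 0 with overlap, and TFC1 (-0.16) lay below. The number of TFIIIC subunits above 0 was 4 with quantile normalization and 2 without Sample B replicate 2, so that the direction of the group rests on that array. In TFIIIB, which places pol III at the start site, both members differed between the Sample B arrays. BRF1 read 7.98 and 9.999 in Sample B, against 9.599 and 9.598 in Sample A, and its difference of -0.61 (adjusted p = 0.597) became 0.40 without Sample B replicate 1. BDP1 read 6.81 and 8.30 in Sample B, against 7.81 and 7.91 in Sample A, and its difference of -0.30 became 0.45 without the same array. In all, the sign of 14 of the 45 members, 4 of them polymerase subunits, turned when some 1 array of Sample B or A was left out.

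The 2 Sample B arrays thus disagreed for individual members and in both directions. On replicate 2 compared with replicate 1 of Sample B, 16 members were lower and 29 higher, and 11 differed by more than 1. The median of all genes on the array was itself 0.60 higher on replicate 2. The difference of 32 members lay below that, the 16 lower members included. RPA190 (-1.86), RPA135 (-1.57) and RPC31 (-1.18) were the lowest on replicate 2, and BRF1 (2.02), BDP1 (1.49) and RRN3 (1.42) the highest. The 3 largest gaps on the low side belonged to polymerase subunits and the 3 largest on the high side to initiation factors. The Spearman correlation of the difference between Sample B and Sample A with gene length was 0.20 over the 45 members. Over the 22 polymerase subunits it was 0.08 within replicate 1 and -0.47 within replicate 2. These are descriptions across genes that share the same arrays.

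**Figure D3:**
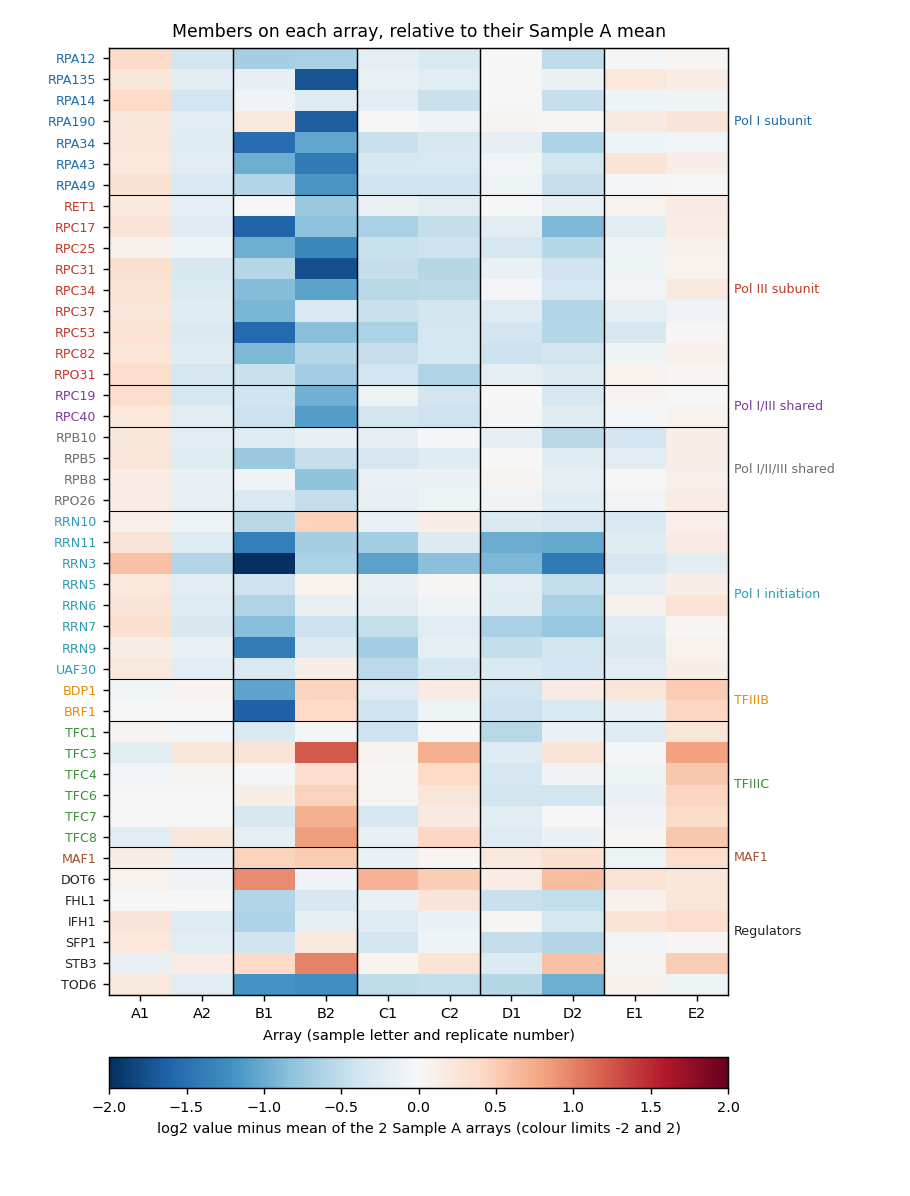
Log2 value of each member on each of the 10 arrays, minus its mean over the 2 Sample A arrays. Columns run from Sample A to Sample E, rows are grouped by role, and blue is lower and red higher than Sample A. Colours end at -2 and 2, a limit that RRN3 passes on B1. The Sample B columns hold the lowest array of 30 of the 45 members, a share that was not computed for all genes. The columns B1 and B2 differ for RPA190, RPA135, RRN3, BRF1 and BDP1.

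Maf1 and the regulators did not move as a group. MAF1, the repressor of pol III that acts when it loses its phosphate groups, read 10.25 and 10.30 in Sample B, against 9.93 and 9.68 in Sample A. Both Sample B arrays were higher, but the difference of 0.47 did not pass the test (SE 0.243, adjusted p = 0.326). TOD6 and DOT6 are paralogs that bind the PAC element of ribosome biogenesis promoters and repress them. TOD6 read 9.36 and 9.32 in Sample B, against 10.76 and 10.34 in Sample A, and fell, with a log2 difference of -1.21 (SE 0.25, adjusted p = 0.034). DOT6 read 11.46 and 10.44 in Sample B, against 10.57 and 10.44 in Sample A. Its difference of 0.44 (adjusted p = 0.527) came from replicate 1 and was -0.06 without that Sample B array.

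STB3, which binds the RRPE element of the same class of promoters, read 9.02 and 9.61 in Sample B, against 8.47 and 8.77 in Sample A. The groups did not overlap, and the difference of 0.70 did not pass (SE 0.351, adjusted p = 0.315). FHL1 and IFH1 encode a factor bound to ribosomal protein promoters and its coactivator. FHL1 read 7.501 and 7.77 in Sample B, against 8.11 and 8.08 in Sample A, lower without overlap (-0.46, adjusted p = 0.331). IFH1 overlapped, with 9.01 and 9.43 in Sample B, against 9.89 and 9.36 in Sample A (-0.41, adjusted p = 0.467). SFP1, an activator of ribosome biogenesis genes, read 10.01 and 10.61 in Sample B, against 10.62 and 10.21 in Sample A. Its difference was -0.10 (adjusted p = 0.880) and turned to 0.10 without Sample A replicate 1 and to 0.19 without Sample B replicate 1.

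Beside the members, 10 further genes of the 2 pathways were measured. They include RPC10, a further subunit of all 3 polymerases, the pol III subunit RPC11, TBP (SPT15), TFIIIA (PZF1), HMO1 and RAP1. None of them passed the test in Sample B against Sample A, with or without the block. Their median was -0.52, but it was -0.82 within replicate 1 and -0.06 within replicate 2. The replicates gave the same sign for 7 of the 10. By their means 9 of these 10 genes lay below 0, against 43.4% of all genes. The exception was CRF1, a corepressor of ribosomal protein genes, which read 5.77 and 7.66 in Sample B, against 5.23 and 5.03 in Sample A. It was above the 95th percentile of the probe sets for other species on 7 of the 10 arrays, and neither Sample A array was among them. A further list held 19 genes for kinases, phosphatases and associated proteins of the signalling to Maf1, Sfp1 or pol III. Of these 19 genes 1 rose and 0 fell, against 3.51% and 0.899% of all genes. This was YAK1, a growth-inhibiting kinase held back by protein kinase A, with 10.88 and 11.10 in Sample B, against 9.36 and 9.47 in Sample A (1.58, SE 0.255, adjusted p = 0.017). With the block, in which 8.11% of all genes rose, KNS1 rose as well (1.49, adjusted p = 0.060 without and 0.019 with the block), a LAMMER kinase that phosphorylates Rpc53. The median of the 19 genes was -0.01.

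After adaptation, with the cells still in KCl, 36 of 45 members, among them 21 of the 22 polymerase subunits, had a mean between those of Sample B and Sample A. The other 9 were RPA14, UAF30, TFC1, TFC4, TFC7, MAF1, SFP1, FHL1 and DOT6. The share of all genes with a mean between the 2 was not computed, so the count of 36 shows nothing particular to the members. Comparisons with Sample A share its 2 arrays, so the values below are given side by side and not as independent evidence. In Sample C against Sample A the median of the members was -0.24, against -0.01 over all genes, and 38 of 45 were below 0, against 51.3% of all genes. None passed the test, against 0.0184% of all genes that rose and 0% that fell, and by unadjusted p under 0.05 there was also no member. Both Sample C arrays were below both Sample A arrays for 18 of 45 members, against 17.8% of all genes. The 9 pol III subunits had a median of -0.49 and 8 of them were lower without overlap, whereas the median was -0.31 for the pol I subunits. All 22 polymerase subunits were below 0, but only 13 were without Sample A replicate 1, with a median of -0.10.

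Set against Sample B, Sample C had higher polymerase subunits. The median was 0.69 for the pol I subunits and 0.42 for the pol III subunits, against -0.10 over all genes, and 21 of 22 polymerase subunits were above 0. Over all members 35 of 45 were above 0, whereas 60.9% of all genes were below 0. There were 16 members that were higher without overlap, against 12.4% of all genes, and 3 (MAF1, STB3 and UAF30) were lower without overlap, against 19.1%. No member passed the test, with 0 of all genes past it in either direction. By unadjusted p under 0.05 the 4 members called in Sample B were higher, against 2.59% of all genes: RPA34 by 0.90, RPA43 by 0.89, RPC25 by 0.71 and TOD6 by 0.71, with adjusted p from 0.362 to 0.386. Both comparisons use the same Sample B arrays. Without Sample B replicate 2 the median of the pol I subunits was 0.19, against 0.12 over all genes. Without Sample B replicate 1 it was 0.77, against -0.40 over all genes.

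RPA34 was at 12.07 and 12.20 in Sample C, 12.35 and 11.89 in Sample D and 12.43 and 12.46 in Sample E. RPA43 was at 10.45 and 10.46 in Sample C, 10.71 and 10.39 in Sample D and 11.03 and 10.90 in Sample E. RPC25 was at 10.36 and 10.40 in Sample C, 10.46 and 10.23 in Sample D and 10.74 and 10.88 in Sample E. By their means all 3 were lowest in Sample B and intermediate in Samples C and D, and in Sample E they lay within the range of Sample A or just above it. TOD6 was also lowest in Sample B, with 10.05 and 10.05 in Sample C, 9.98 and 9.58 in Sample D and 10.63 and 10.46 in Sample E. MAF1 was above Sample A without overlap in both samples taken 1 h after a change of medium, B and D. It read 9.67 and 9.85 in Sample C, 10.01 and 10.13 in Sample D and 9.70 and 10.15 in Sample E. The Sample D against Sample A difference of MAF1, 0.26, did not pass the test (SE 0.243).

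**Figure D4:**
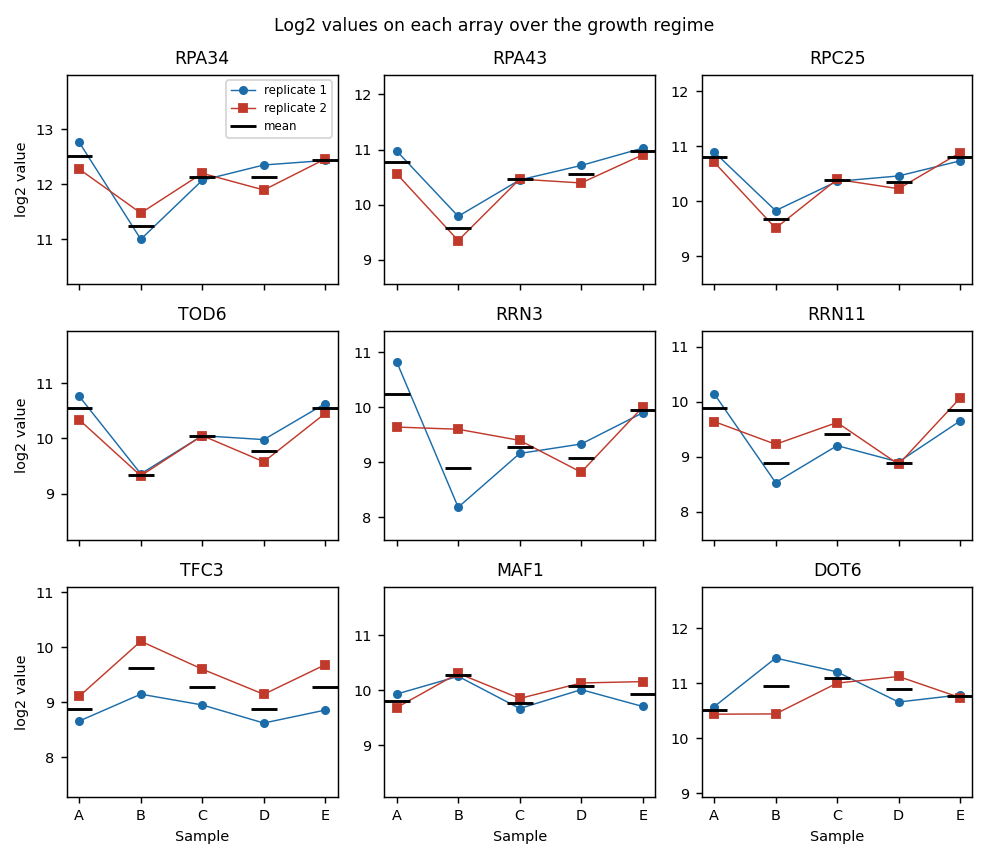
Log2 values of 9 members on each array from Sample A to Sample E. Circles and squares are replicates 1 and 2, joined by lines, and bars are the mean of both. Each panel spans the same log2 range. RPA34, RPA43, RPC25 and TOD6 are lowest in Sample B on both replicates, while RRN3 and DOT6 differ between replicates there.

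At 1 h into recovery most of the machinery had a lower mean than in normal growth. In Sample D against Sample A all 16 initiation factors were below 0, with a median of -0.35, and 12 of them were lower without overlap. The median over all genes was -0.12, and 31.8% of all genes were lower without overlap. Relative to that shift the picture is smaller: after centring each array on its median 13 of the 16 factors were below 0. For the 22 polymerase subunits the median was -0.23 and 4 were lower without overlap. Which group lay lower depends on the Sample A array: without replicate 1 the median was 0.06 for the subunits (9 of 22 below 0) and -0.28 for the initiation factors (16 of 16), and without replicate 2 it was -0.57 for the subunits (22 of 22) and -0.40 for the initiation factors (14 of 16). The difference between the groups was not tested. Over all 45 members 19 were lower without overlap, or 42.2%, and 2 (DOT6 and MAF1) higher, against 9.97% of all genes. Below 0 were 41 members, against 70.9% of all genes. After centring 35 members were below 0, against 2808 of all 5449 genes. None of the members passed the test, nor did any of the 5449 genes. By unadjusted p under 0.05, RRN3, RRN7, RRN11 and TOD6 were lower, against 1.5% of all genes.

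RRN11 read 8.91 and 8.86 in Sample D, against 10.15 and 9.64 in Sample A. The difference was -1.01 (SE 0.322, adjusted p = 0.921) and was as large as in Sample B. RRN3 read 9.33 and 8.82 in Sample D, against 10.82 and 9.64 in Sample A, a difference of -1.16 (SE 0.505). RRN7 was at 8.16 and 8.04 in Sample D, against 9.13 and 8.48 in Sample A. For all 3 genes both Sample D arrays were below both Sample A arrays. TOD6 differed by -0.77 in Sample D (SE 0.25).

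From Sample C to Sample D no member passed the test, with 0 of all genes past it in either direction. In Sample D against Sample C, 16 of 22 polymerase subunits were above 0, with a median of 0.07, and 14 of 16 initiation factors were below 0, with a median of -0.29. The difference between these groups was not tested, and the median of the subunits was 0.20 within replicate 1 and -0.04 within replicate 2. The median over all genes was -0.09. All 6 TFIIIC subunits were below 0 (median -0.35). Without overlap, 7 initiation factors and 3 regulators were lower, together 22.2% of the members against 29.5% of all genes. Higher without overlap were 7 polymerase subunits and MAF1, 8 members in all, against 13.7% of all genes.

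After recovery the means of the members lay close to those of normal growth. In Sample E against Sample A no member passed the test and none was lower without overlap, against 0.936% of all genes, while 4 (BDP1, IFH1, FHL1 and DOT6) were higher without overlap, against 21.8%. Differences lay between -0.28 (RRN3) and 0.39 (TFC3), with a median of 0.02 over the members and 0.13 over all genes. The Sample A arrays set this level: for 28 of 45 members the highest of all 10 arrays was Sample A replicate 1, and the members' median difference of replicate 2 from replicate 1 in Sample A was -0.42. The share of all genes highest on that array was not computed. Without Sample A replicate 1 the median of Sample E against Sample A was 0.21, and without replicate 2 it was -0.20.

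In Sample E against Sample D 43 of 45 members were above 0, where 13.2% of all genes were below 0, and 30 were higher without overlap, against 47.9% of all genes. None was lower without overlap, against 3.08%. The median of the members was 0.31, against 0.25 over all genes. The initiation factors had a median of 0.45 and the polymerase subunits 0.25. The largest differences were those of RRN11 (0.97, SE 0.322, adjusted p = 0.853), RRN3 (0.87) and TOD6 (0.77), and none passed the test. By unadjusted p under 0.05 RRN11, TOD6 and FHL1 were higher, against 3.06% of all genes.

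**Figure D5:**
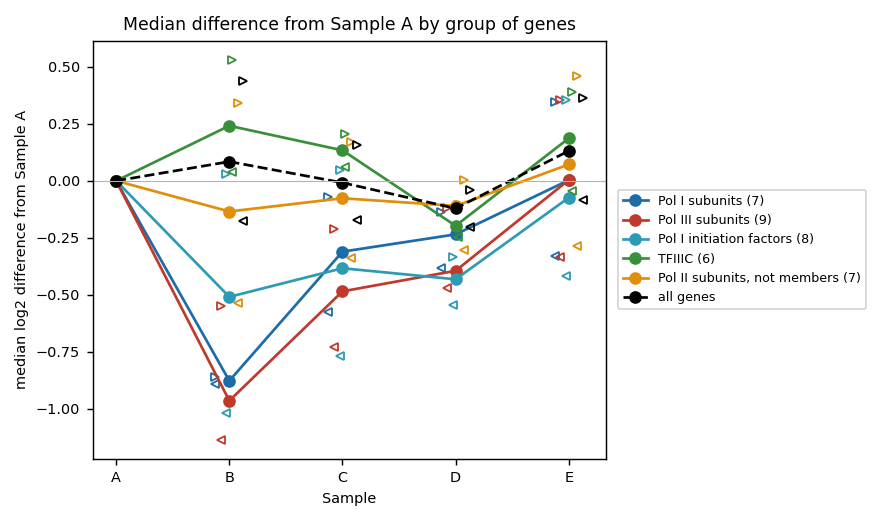
Median log2 difference from Sample A for groups of genes in Samples B to E, with Sample A at 0 by construction. Filled points use the stage means, and open triangles use replicate 1 or replicate 2 alone. By stage means, pol I and pol III subunits are lowest in Sample B (-0.88 and -0.97) and the pol II subunits lie between -0.13 and 0.07. The pol I initiation factors lie between -0.51 and -0.38 in Samples B to D by stage means. Within replicate 1 alone they are at -1.02 in Sample B and -0.77 in Sample C, and within replicate 2 alone at 0.03 and 0.05.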

How the data were processed

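The authors deposited a log2 value for each probe set and array, computed from the scans with the RMA algorithm of Affymetrix Expression Console, which corrects background, normalizes arrays and summarises probes. The program version, and whether all arrays were normalized in 1 run, are not given in the sources used here. Gene symbols came from the platform annotation and were updated through the RefSeq gene table (assembly R64). Where a gene had several probe sets (47 genes) the one with the highest mean was kept.

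Differences were tested with limma 3.58.1 (R 4.3.3), with 1 coefficient per sample over all 10 arrays, eBayes and two-sided Benjamini-Hochberg adjustment over 5449 genes at 0.05. The test takes 1 spread per gene for all samples. Since replicates differed most in Sample B, its SEs can be too small for Sample B and too large elsewhere. The number of arrays, 2 a sample, limits the precision of every value. The script was tested on simulated data.

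The labels state that the replicates came from different culture batches, so the replicate number pairs arrays. Deviations of same-numbered arrays from their group means correlated at 0.22 to 0.52 between samples (median 0.43). The main fit leaves this pairing out, and so do its SEs and adjusted p values. The replicate number was used as a block in an alternative fit, and values from it are marked as with the block.

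The members and all gene lists were chosen with earlier results of these data known. Array values are given for members past the threshold in any fit with or without the block, the member with the largest Sample B against Sample A difference in each class, MAF1 and the regulators. From the comparison lists the genes past the threshold and the largest difference of each list are given. Other genes named were chosen after their values were seen. A gene of the kinase list is not reported here. Levels were not compared between genes. Alternatives were quantile normalization, median centring, leaving out dim genes, the 2 samples alone, the mean of probe sets, and leaving out each array in turn.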

Additional observations from a re-analysis of the deposited data

How the results depend on the processing

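The count of 4 members past the threshold in Sample B against Sample A became 9 with quantile normalization, 8 with median centring, 0 with the 2 samples fitted alone and between 0 and 13 when 1 array was left out. With the replicate block it was 6. With the replicate block and median centring together, a setting chosen after seeing the data, it was 20, of which 19 were lower and 1 (TFC3) higher. RPA34, RPC25 and TOD6 were among the calls of the block, both normalizations and the fits without either Sample B array. RPA43 was not past the threshold with quantile normalization (adjusted p = 0.054) or median centring (0.055). Over all 17 alternatives the adjusted p of RPA34 ran from 0.0042 to 0.414, of RPA43 from 0.0039 to 0.434, of RPC25 from 0.0042 to 0.434 and of TOD6 from 0.0043 to 0.405, with the direction kept in each. The cause of these changes was not tested. The fits that leave out an array differ both in the arrays used and in their number.

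In Sample C against Sample B, 0 to 5 members passed when 1 array was left out. In Sample E against Sample D, 1 member (RRN11) passed with the 2 samples fitted alone. The counts of the other comparisons stayed at 0 in every alternative, and the block changed no other call. Among the genes named by the rule, direction turned in 3: leaving out 1 array in turn, BRF1 ran from -1.62 to 0.40, DOT6 from -0.063 to 0.95 and SFP1 from -0.40 to 0.19, with the sign turned without Sample B replicate 1 in each and, for SFP1, also without Sample A replicate 1 (0.10). Over all 45 members, a count chosen after seeing the data, the sign of Sample B against Sample A turned in 14 when some 1 array of either sample was left out. Normalization moved the median of all genes in Sample B against Sample A to -0.08 (quantile) or -0.06 (median centring), while the median of the members was -0.70 and -0.72. Dim signal limited none of the members.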
